A study of Mus musculus with 5 samples.

Results

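The miR-466, miR-467, miR-669, and miR-297 miRNAs of the mouse are a large family of closely related small RNAs. Its members were taken by name, as every mouse miRNA on the array called miR-466, miR-467, miR-669, or miR-297 with any letter or arm suffix, which gave 61 of the 1247 miRNAs measured. They comprised 23 miR-466, 12 miR-467, 23 miR-669, and 3 miR-297 miRNAs. A miRNA guides silencing proteins to messenger RNAs that pair with its seed, the short stretch near its 5′ end. Most genes of this family lie in an intron of Sfmbt2, an imprinted gene that encodes a polycomb-related protein and is best known from the placenta. Many members carry runs of alternating U and G or of alternating C and A, so their sequences resemble each other and also resemble simple repeats of the genome.

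Kidneys came from healthy male C57B/6 mice of 20 to 25 g. The IRI (ischemia reperfusion injury) mice had both kidneys clamped for a warm ischemia of 30 min and were killed 6, 12, 24, or 48 h after the clamps came off. The sham mice had the same operation without the clamp, and their sampling time was not given in the labels. The labels give 8 mice per time point and 1 array per group. Whether RNA of several mice was mixed on that array is not given in the sources used here.

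On an Agilent 1-colour miRNA array each miRNA is read by a few short DNA probes, each printed in many spots. The signal given here for a miRNA is the sum over its own probes whose signal was above 3 times the error that the scanner software gave them, in intensity units. A miRNA with at least 1 such probe is called detected. The errors printed after ± are this scanner error. They cover the spots of 1 array and contain no difference between mice, so no test between groups was possible, and signals of different probes do not compare amounts of RNA. A lower signal of a whole kidney can come from fewer cells of a type or from less RNA per cell, which cannot be told apart.

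The sham and 6 h arrays shared slide 1, and the other 3 arrays were on slide 2, so the slide and the later time points cannot be told apart in any ratio over sham. The 12 and 24 h arrays shared slide and scan. Their effective feature size, a factor by which the software multiplied every probe signal, was 0.774 and 0.776, against 0.6 on the sham, 6, and 48 h arrays. Ratios were therefore also computed with one feature size for all arrays. Of the 8 kidney tubule miRNAs checked, 7 were detected on every array, whereas the markers of liver, heart and muscle, and brain were detected on none. Of the 5 embryonic stem cell and placenta miRNAs, which belong to the other tissues in which the family is known, 1 was detected, on the 24 h array alone.

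The probes of the 13 members that were detected on at least 1 array are shown first, because these probes shared a feature that the names did not use. The longest probe of each is printed 5′ to 3′ as the array files give it, and capitals mark its longest run of alternating C and A or of alternating G and T. A probe is complementary to its miRNA, so a probe with CACACA reads an RNA with UGUGUG and a probe with TGTGTG reads an RNA with CACACA.
miR-466i-5p: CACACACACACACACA
miR-466h-3p: GTGTGTGTGTGcgt
miR-467f: tgtagGTGTGTGTGTGT
miR-669p-3p: atacGTGTGTGTGTGTatg
miR-466i-3p: tagtgtgtaTGTGTGTGTG
miR-466q: acgtaTGTGTGTGTGTG
miR-466f-3p: gtgtgtaTGTGTGTGTG
miR-466g: TGTGTGTGcatgtgtc
miR-669n: acacacatcCACACACAa
miR-669c-3p: tttactTGTGTGTGTGTG
miR-669h-3p: tgtgcaTGTGTGTatatgc
miR-669f-3p: atacGTGTGTGTGTatgt
miR-466m-3p: tgcGTGTGTatgtgtg

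The probe of miR-466i-5p, the brightest member, was repeat from end to end over 16 bases. The shortest run among the detected members was that of miR-466m-3p, with 6 bases. RefSeq (build GRCm38.p6) gave mature sequences for 7 of the 61 members, of which 4 were detected. In these 4 the capitals mark the seed, bases 2 to 8, and the repeat runs into or through the seed in each.
miR-466i-3p: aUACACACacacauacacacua
miR-466q: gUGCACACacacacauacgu
miR-467f: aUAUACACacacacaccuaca
miR-669n: aUUUGUGUguggaugugugu

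The first lies at chr13:17747552-17747573 on the plus strand, miR-466q at chr3:28419988-28420007 on the plus strand, miR-467f at chr11:69635419-69635439 on the minus strand, and miR-669n at chr3:115979905-115979924 on the plus strand. None of these 4 positions is in Sfmbt2. The 7 known mature sequences had 7 different seeds, so no group of members with a shared seed could be formed from them.

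The family was detected on every array, and on the 12 h array more of it was detected than on any other. The sham array detected 8 of 61 members, where 17.6% of all 1247 miRNAs were detected. The 6 h array detected 9 members, beside 19.9% of all miRNAs. The 12 h array detected 13 members, beside 22.4% of all miRNAs. The 24 h array detected 8 members although it detected the largest share of all miRNAs, 23.9%. The 48 h array detected 9 members, beside 15.8% of all miRNAs. The family's share was closest to that of all miRNAs at 12 and 48 h and farthest below it at 24 h.

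The same 8 members were detected on all 5 arrays, namely miR-466f-3p, miR-466h-3p, miR-466i-3p, miR-466i-5p, miR-466q, miR-467f, miR-669n, and miR-669p-3p. No member was detected at 24 h alone, and no member detected on the sham array was lost at 24 h. The best probe of the 48 members detected on no array reached at most 2.39 times its error at 12 h and at most 1.66 times on the sham array. At 12 h 4 of them, miR-669b-5p, miR-669l-5p, miR-467a-3p, and miR-466m-5p, were above 2 times their error. All 3 miR-297 miRNAs were among the 48 members detected on no array, so the miR-297 part of the family has no measured level here.

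Of the 13 detected members, 4 were detected on the 12 h array alone, so that their highest array was fixed by detection. The other 9 were detected on several arrays, and 9 of 9 had their highest signal at 12 h. Of the 334 miRNAs detected on any array, 26% were highest at 12 h and 66.5% were highest at 24 h. With one feature size the share of all miRNAs highest at 12 h was 23.7%.

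miR-466i-5p, the strongest miR-466 member, had a signal of 103 ± 7.5 (sham), 218 ± 15.6 (6 h), 1135 ± 80.9 (12 h), 356 ± 25.6 (24 h), and 200 ± 14.4 (48 h). The 12 h signal stood apart from the other 4, and the sham signal was the lowest. This member alone gave between 45% and 57.4% of the family's summed signal on each array. Single spots show how far the arrays lay apart on the 16-base probe. Its 20 spots lay between 162 and 221 on the sham array and between 383 and 472 at 6 h. They lay between 1642 and 1869 at 12 h, between 494.4 and 585 at 24 h, and between 351 and 452.7 at 48 h. Of these ranges only those of 6 and 48 h overlapped.

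miR-466h-3p had a signal of 27.3, 69.2, 263, 76.8, and 41.5 on the sham, 6, 12, 24, and 48 h arrays. miR-467f, the only detected miR-467 member, had 28.1, 65.8, 185, 66.8, and 42.7 in the same order. miR-669p-3p, the strongest miR-669 member, had 21.3, 51.1, 123, 44.4, and 36.0. In all 3 the 6 and 24 h arrays gave similar signals, and the 12 h signal was above both.

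miR-466q had a signal of 14.5 on the sham array, then 38.9, 109, 30.5, and 23.0 at 6, 12, 24, and 48 h. miR-466i-3p, which comes from the same hairpin as miR-466i-5p, had 5.97, then 14.1, 119, 18.0, and 10.6. miR-466f-3p had 4.26, then 12.6, 97.4, 18.3, and 6.55. In both the 12 h signal was the highest and the 24 h signal came next. miR-669n was dim throughout, with 4.58, 5.01, 38.5, 8.97, and 5.30 in the same order, and its sham, 6, and 48 h signals differed by less than their scanner errors.

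The remaining 5 detected members were not detected on the sham array or at 24 h. miR-669c-3p had 10.1 at 6 h, 28.4 at 12 h, and 6.91 at 48 h, and its best probe on the sham array reached 2.86 times its error, just under the limit. Detected at 12 h alone were miR-466g with 52.1, miR-669h-3p with 18.3, miR-669f-3p with 11.9, and miR-466m-3p with 11.1. Of all 279 miRNAs detected at 12 h, 3.94% were detected there alone, and for the family this was 4 of 13. A fold was taken from the brightest probe of each at 12 h, set against a floor on the 24 h array. The floor was the lowest probe signal detected there, or the same probe's own signal where that was higher. The 12 h signal was 4.65-fold the floor for miR-466g and 3.65-fold for miR-669c-3p. It was 2.73-fold for miR-669f-3p, 2.55-fold for miR-466m-3p, and 2.16-fold for miR-669h-3p. These folds are not lower bounds, because a probe goes undetected up to 3 times its own error. On the 24 h array that error was 2.77 for the probe of miR-669f-3p and 2.76 for those of miR-466m-3p and miR-669h-3p.

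**Figure D1:**
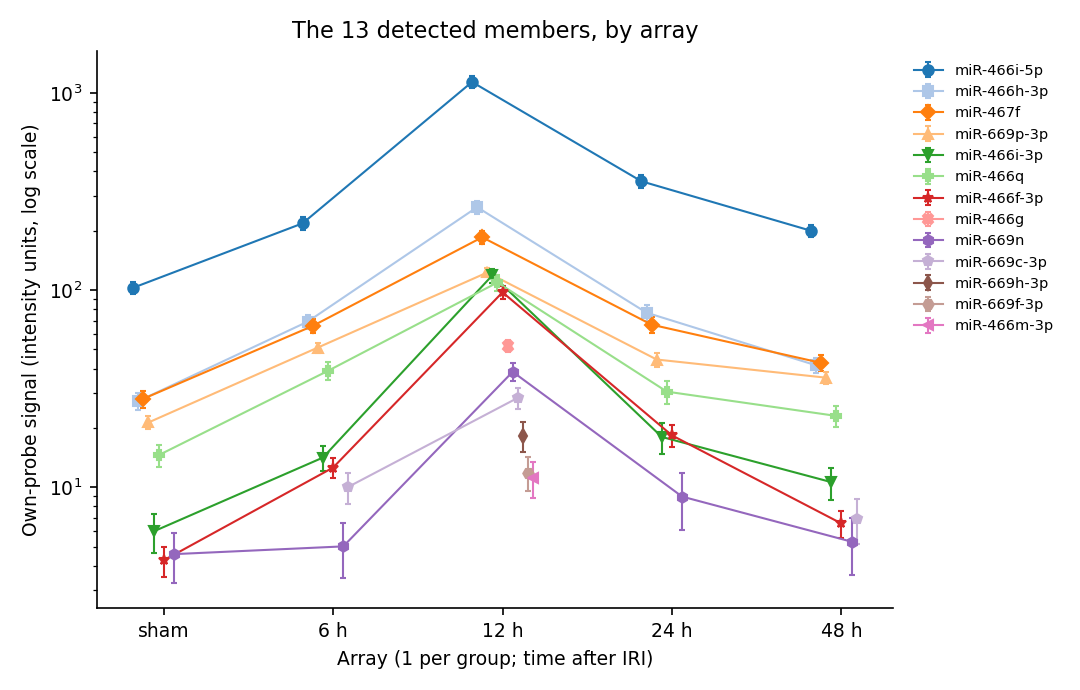
Own-probe signal in intensity units (log scale) of the 13 detected members on the sham, 6, 12, 24, and 48 h arrays, 1 array per group, with bars for the scanner error and no point where a member was not detected. The 9 members detected on several arrays are highest at 12 h, and miR-466g, miR-669h-3p, miR-669f-3p, and miR-466m-3p have a point at 12 h alone.

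**Figure D2:**
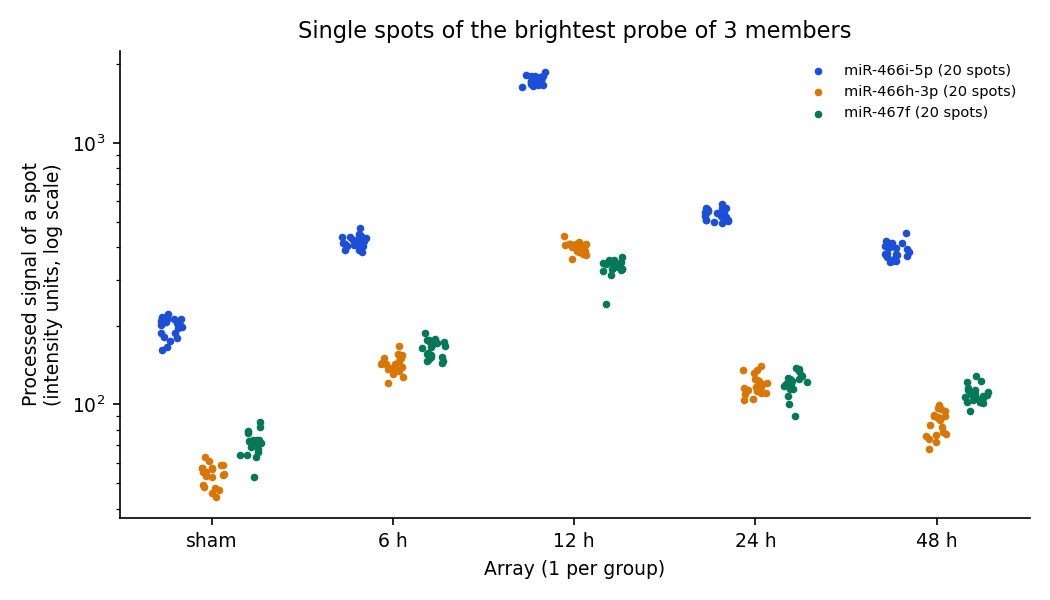
Processed signal of single spots in intensity units (log scale) for the brightest probe of miR-466i-5p, miR-466h-3p, and miR-467f, with 20 spots a probe on each of the 5 arrays. For each probe the lowest spot at 12 h, 1642 for miR-466i-5p, lies above the highest spot of every other array.

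At 12 h 28 of the 162 probes of the family were detected, against 14 on the sham array, 17 at 6 h, and 15 at 24 and at 48 h. Each probe detected on another array was also detected at 12 h. Of the 14 probes detected on the sham array, 14 had their lowest spot at 12 h above their highest spot on the sham array. The same held for 15 of the 15 detected at 24 h, for 14 of the 15 at 48 h, and for 15 of the 17 at 6 h. None of the 2440 spots of the family was saturated on any array. In the few exceptions the spots of the arrays overlapped. Elsewhere the difference was larger than the spread between spots, which is a spread within 1 array and not between mice.

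Summed over its detected members, the family gave a signal of 209 ± 9.0 (sham), 484.7 ± 18.4 (6 h), 2192 ± 86.4 (12 h), 620 ± 28.2 (24 h), and 373 ± 16.2 (48 h). It made up 0.321% of the signal of all miRNAs on the sham array and 0.628%, 1.76%, 0.452%, and 0.495% of it on the 6, 12, 24, and 48 h arrays. Its share was thus highest at 12 h and lowest on the sham array.

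At 6 h the family sum was 2.32-fold that of sham, a log2 ratio of 1.21 ± 0.08, where the sum of all miRNAs had 0.24. Both arrays shared slide, scan, and feature size. Of the 8 members detected on both, 7 were at least 2-fold higher, where 20.1% of all miRNAs detected on both arrays were. The exception was miR-669n, with a log2 ratio of 0.13 ± 0.60, and the other 7 lay between 1.08 and 1.56. The median was 1.25 for the members and 0.18 for all miRNAs. With 75th percentile scaling 3 members were at least 2-fold higher, and with normexp background correction the median was 0.55.

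At 12 h the family sum was 10.5-fold that of sham, a log2 ratio of 3.39 ± 0.08, where the sum of all miRNAs had 0.93. With one feature size it was 8.13-fold, a log2 ratio of 3.02, and scaled by the spike-in controls, which were higher at 12 h by a log2 ratio of 1.05, it was 2.34. All 8 members detected on both arrays were at least 2-fold higher, where 34.6% of all miRNAs were, or 27.4% with one feature size. The log2 ratio was 4.52 ± 0.27 for miR-466f-3p, 4.31 ± 0.35 for miR-466i-3p, and 3.47 ± 0.15 for miR-466i-5p. It was lowest for miR-669p-3p, at 2.53 ± 0.13. The members' median was 3.17, and that of all miRNAs was 0.62. A part of this came from probes that passed the detection limit at 12 h but not on the sham array. Over the probes detected on both arrays the members' median was 2.99 and their range 2.06 to 3.86.

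At 24 h the family sum was 2.97-fold that of sham, a log2 ratio of 1.57 ± 0.09, where the sum of all miRNAs had 1.07. The members did not stand out at this time. Of 8, 7 were at least 2-fold higher, but so were 55% of all miRNAs, and with one feature size 4 of 8 were, beside 34.4%. The highest log2 ratios were those of miR-466f-3p (2.10 ± 0.31), miR-466i-5p (1.79 ± 0.15), miR-466i-3p (1.59 ± 0.42), miR-466h-3p (1.49 ± 0.19), and miR-467f (1.25 ± 0.20). The lowest were those of miR-466q at 1.07 ± 0.27, miR-669p-3p at 1.06 ± 0.16, and miR-669n at 0.97 ± 0.62. The count and the directions were not stable. Scaled by spike-ins 1 member was at least 2-fold higher and scaled by the 75th percentile 0 were, and the last 3 members were then slightly below 0. In the processed table values, 6 of the 8 were below 0, miR-466f-3p, miR-466i-3p, and miR-467f among them.

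At 48 h the family sum was 1.78-fold that of sham, a log2 ratio of 0.84 ± 0.09, where the sum of all miRNAs had 0.21. None of the 8 members was at least 2-fold higher, where 7.98% of all miRNAs were. The members' log2 ratios lay between 0.21 and 0.96 with a median of 0.64, all above the median of all miRNAs, −0.22. The sign depended on the scaling, because the spike-in controls were higher on this array than on the sham array by a log2 ratio of 1.04, and scaling by them gave the family sum a log2 ratio of −0.21.

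**Figure D3:**
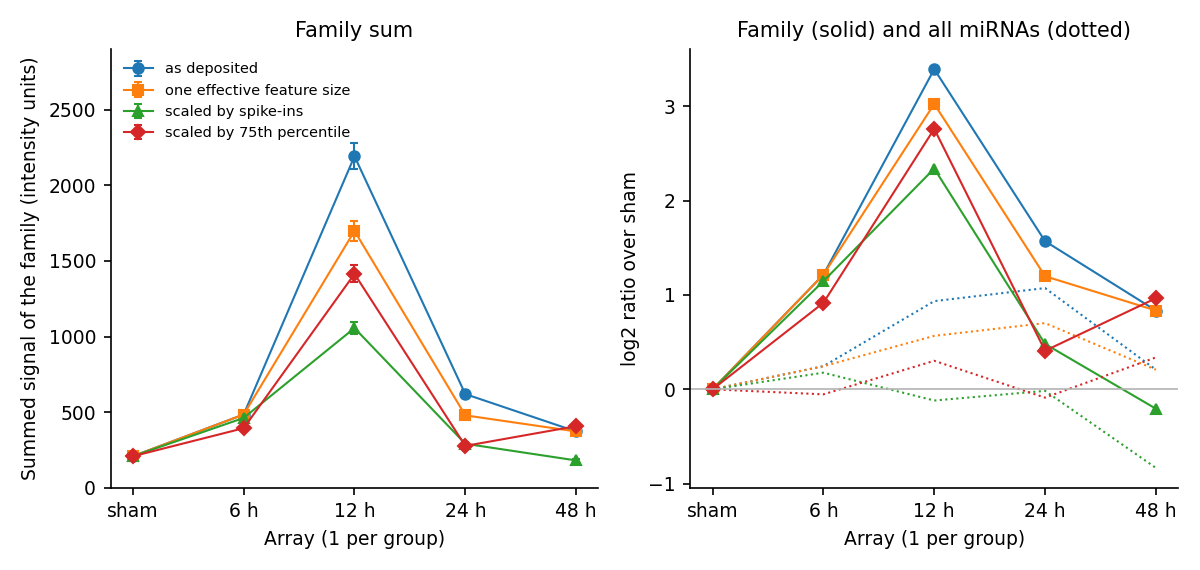
Left, summed signal of the family in intensity units on each of the 5 arrays, as deposited and under 3 scalings, with bars for the scanner error. Right, the log2 ratio over sham of the family (solid lines) and of all 1247 miRNAs (dotted lines), in which the family peaks at 12 h under each scaling, between 2.34 and 3.39.

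The 12 and 24 h arrays shared slide and scan and had nearly the same feature size, as the sham and 6 h arrays did. The family sum was 3.54-fold higher at 12 h, a log2 ratio of 1.82 ± 0.09, whereas the sum of all miRNAs was lower at 12 h, with −0.14. The spike-in controls were nearly level between these 2 arrays, and with spike-in scaling the family's log2 ratio was 1.86. All 8 members detected on both arrays were at least 2-fold higher at 12 h, where 24 of 258 miRNAs, or 9.3%, were. Their log2 ratios ranged from 1.47 to 2.72 with a median of 1.81, and the median of all miRNAs was −0.40. Over the probes detected on both arrays the members ranged from 1.09 to 2.26, all still at least 2-fold, where 5.81% of all miRNAs were. When the 258 miRNAs were ordered by the ratio of the sums over all detected probes, miR-466i-3p ranked 2, miR-466f-3p ranked 4, and miR-669n ranked 5. The last of the 8, miR-669p-3p, ranked 15. The first 3 had more probes detected at 12 than at 24 h, which raised their ranks. Over the probes detected on both arrays they had 2.26, 2.22, and 1.09, and the value of miR-669n was the lowest of the 8.

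The total of the family rested on miR-466i-5p, but its course did not. Without that member the sums were 106, 267, 1057, 264, and 173 on the sham, 6, 12, 24, and 48 h arrays. The log2 ratio was then 3.32 ± 0.08 for 12 h over sham and 2.002 ± 0.08 for 12 over 24 h.

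By genome position the family separates into the Sfmbt2 cluster and a few single genes elsewhere. In RefSeq (GRCm38.p6) Sfmbt2 lies at chr2:10370440-10595253, and 70 hairpin genes of the family lie within it. The array files' own probe positions fell inside a gene of this annotation for 61 of 61 members. Of the members, 51 had all their genes inside Sfmbt2, 8 had them outside, and 2 had genes in both places. Of the 51, 7 were detected on at least 1 array and 2 on all arrays, miR-466h-3p (Mir466h, chr2:10514891-10514971) and miR-669p-3p (2 genes, Mir669p-1 and Mir669p-2). Of the 8 outside, 5 were detected, and those 5 were detected on all arrays. Of all miRNAs 26.8% were detected on any array and 14.6% on all arrays. Position went together with the repeat run of the probes. A run of 10 bases or more was found in 4 of the 51 inside and in 4 of the 8 outside, and all 4 were detected in each place. Of those with shorter runs, 3 of 47 inside and 1 of 4 outside were detected.

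These 5 were miR-466i-5p and miR-466i-3p from Mir466i (chr13:17747473-17747593), miR-466q from Mir466q (chr3:28419943-28420018), miR-467f from Mir467f (chr11:69635400-69635519), and miR-669n from Mir669n (chr3:115979902-115979955). The few members outside Sfmbt2 gave 74.7% of the family signal on the sham array and 72.4% at 12 h, and those inside gave 23.3% and 23.2%. In both groups the 12 h sum was the highest. The 6 and 24 h sums were 130 and 121 inside and 342 and 480.3 outside. The log2 ratio for 12 h over sham was 3.38 ± 0.11 for the summed members inside and 3.35 ± 0.11 for those outside, a difference smaller than the scanner error. For 12 over 24 h it was 2.07 ± 0.11 inside and 1.72 ± 0.11 outside. The 2 sums are sums over detected members. Inside, 7 members entered at 12 h, against 2 on the sham array and 2 at 24 h. Outside, the same 5 entered on every array. The 2 inside, miR-466h-3p and miR-669p-3p, had 3.27 ± 0.17 and 2.53 ± 0.13 for 12 h over sham, both below the summed 3.38. For 12 over 24 h they had 1.78 ± 0.16 and 1.47 ± 0.14, both below the summed 2.07. The inside ratios thus depend on members that entered at 12 h but not on the sham or 24 h array.

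By arm, 8 of the 26 members of the 3p arm were detected on any array, 1 of the 25 of the 5p arm, and 4 of the 10 whose names give no arm. Of all miRNAs 26.8% were. On all arrays 4, 1, and 3 members were detected in the same order, beside 14.6% of all miRNAs. The 1 detected 5p member was miR-466i-5p. Most 3p members, 22 of 26, had a probe with TGTGTG, and 15 of 25 5p members had one with CACACA.

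Within the family detection differed with the repeat run of the probe. A probe with the letters CACACA or TGTGTG was found in 44 of the 61 members, 72.1%, against 5.29% of all 1247 miRNAs and 1.85% of those outside the family. The 2 motifs are each other's reverse complement, so both strands were covered. All 13 detected members were among the 44, 29.5% of them, and 0 of the 17 others was detected. Of all miRNAs 26.8% were detected on any array. Outside the family the share was 27.3% of the 22 with such a probe and 27.1% of the 1164 without. The motif thus did not set detected and undetected miRNAs apart outside the family. Of the 9 members with a run of 10 bases or more in a probe, 9 were detected. Of 14 with a run of 8 or 9 bases, 2 were detected, of 23 with 6 or 7 bases 2 were, and of 15 with shorter runs none was. Members with CACACA probes and members with TGTGTG probes, which read RNAs of opposite repeat were both highest at 12 h, in 2 of 2 and 11 of 11 detected, but 4 of the 11 were detected on that array alone. The courses were not the same in other respects, since miR-669n, 1 of the 2 with CACACA, differed from sham at 6 h by a log2 ratio of only 0.13 ± 0.60.

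**Figure D4:**
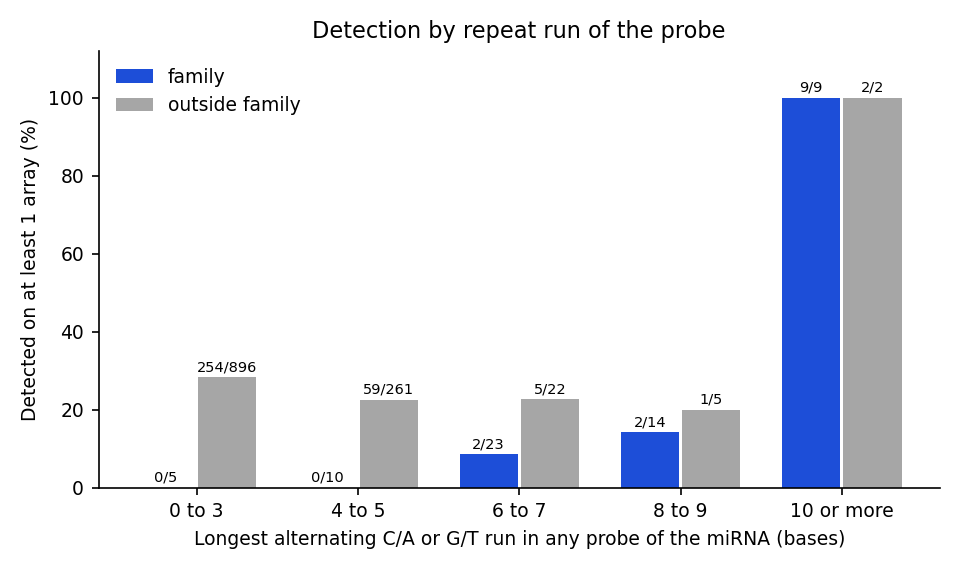
Percent of miRNAs detected on at least 1 array, by the longest alternating run of C and A or of G and T in any of their probes, for the 61 members (blue) and the 1186 other miRNAs (grey), with the counts above the bars. In the family detection goes from 0 of 5 with the shortest runs to 9 of 9 with runs of 10 bases or more, and outside it runs of 10 or more occur in 2 miRNAs, both detected.

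The 12 h pattern was therefore looked for in miRNAs that do not belong to the family but have such a probe. Of 22, 6 were detected, and 5 of them were measured at 12 and 24 h. The remaining 1, miR-294-3p, has a probe run of 7 bases. It was detected at 24 h alone, with 15.6, and so did not share the 12 h pattern. It is also the embryonic stem cell and placenta miRNA detected on that array. The longest probes of the 5 are shown as above, with the longest run in capitals.
miR-574-5p: acacactCACACACACAC
miR-3082-5p: acacagACACACACAC
miR-1187: ttacacacatACACACACA
miR-574-3p: tgtggGTGTGTGcat
let-7b-5p: aacCACACAacctactacc

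miR-574-5p had a signal of 30.4, 61.2, 343, 101, and 60.3 on the sham, 6, 12, 24, and 48 h arrays. miR-3082-5p had 8.65, 21.7, 289, 47.3, and 16.9 in the same order, and miR-1187 had 6.05, 17.9, 122, 29.9, and 19.8. In these 3, as in miR-466i-5p, the 12 h signal was highest and the 24 h signal came next. miR-574-3p was detected at 12 h with 64.3 and at 24 h with 4.48 alone. let-7b-5p, whose probe has a run of 6 bases in an otherwise mixed sequence, went another way, with 3162, 3155, 3112, 4149, and 2218.

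The log2 ratio for 12 over 24 h was 3.84 ± 0.48 for miR-574-3p, 2.61 ± 0.20 for miR-3082-5p, 2.03 ± 0.24 for miR-1187, and 1.77 ± 0.16 for miR-574-5p, and −0.41 for let-7b-5p. The first 4 were at least 2-fold higher, as were 12 of the 245 miRNAs outside the family without such a probe. For miR-574-3p the 24 h signal was 4.48 ± 1.45, close to the lowest signal detected on that array, 4.35, so its ratio is uncertain. Of the 20 highest ratios of this comparison, again of sums over all detected probes, 8 belonged to members and 4 to these miRNAs. This list was put together after the members' values were known. By mature sequence, 16 miRNAs outside the family carried UGUGUG, and the 4 of them measured at 12 and 24 h were miR-574-5p, miR-3082-5p, miR-1187, and let-7b-5p again.

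Of the other lists of related miRNAs, the let-7 family did not share the pattern, and the Dlk1-Dio3 cluster shared it in some of its measured miRNAs. Of the let-7 family, a set of like members read by like probes, 10 miRNAs were measured at 12 and 24 h, none was at least 2-fold higher at 12 h, and the median log2 ratio was −0.81. All 13 detected let-7 miRNAs had their highest unscaled signal at 24 h. The 12 h array detected 10 of them and the sham, 6, and 48 h arrays 8 each. For some, detected at 24 h alone, the highest array was therefore fixed by detection. Of the 99 miRNAs of the Dlk1-Dio3 cluster, another large imprinted cluster, 6 were measured on both arrays and 3 were at least 2-fold higher at 12 h, with a median of 0.40. Of all 258 miRNAs 9.3% were at least 2-fold higher, and the median was −0.40. The cluster's log2 ratios ranged from −1.48 to 2.04, the latter in miR-134-5p, which lay within the range of the members.

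**Figure D5:**
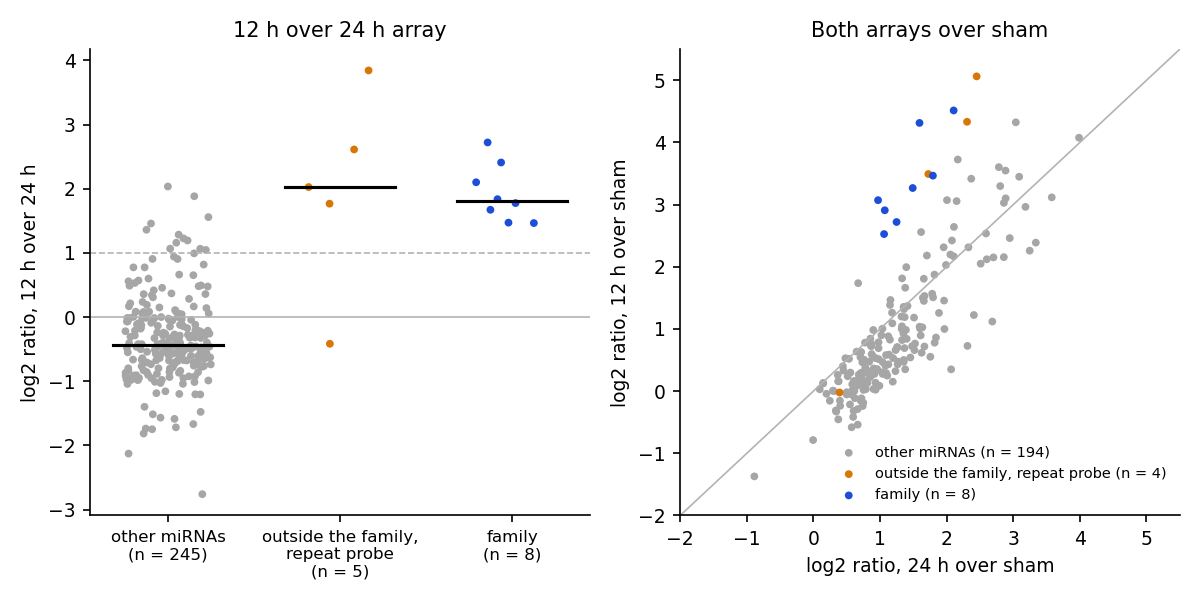
Left, log2 ratio of 12 h over 24 h for each miRNA detected on both arrays, in 245 other miRNAs, 5 miRNAs outside the family with a CACACA or TGTGTG probe, and 8 members, with the group medians as black lines and 2-fold as a dashed line. Right, log2 ratio over sham at 12 h against that at 24 h, with equality as a grey line, from which the 8 members lie upward.

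Markers of blood cells were read beside these results. The summed signal of the leukocyte miRNAs, 6 on the list with 3 or 4 detected on each array, was 47.8 (sham), 76.7 (6 h), 111 (12 h), 70.7 (24 h), and 61.2 (48 h). The sum was highest at 12 h and was carried by miR-223-3p, with 82.7 there. miR-155-5p and miR-146a-5p were highest at 24 h instead, with 18.7 and 12.5, and miR-142-5p and miR-150-5p were detected on no array. miR-451a of red blood cells was highest at 24 h and next at 6 h, with 538 and 500, and had 234 at 12 h. The other red blood cell miRNA, miR-144-3p, was detected on no array. The part of leukocytes, of the array, and of the slide in the 12 h signal of the family was not tested.

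A probe can also read a relative of its miRNA. In the array files 29 of the 162 probes of the family list more than 1 miRNA, and they belong to 12 members, of which 2 were detected. Such members cannot be told apart where they share a probe.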

How the data were processed

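Kidney RNA of 5 groups was measured on 5 Agilent miRNA arrays. The authors deposited intensity values as written by Agilent Feature Extraction 10.7.1.1 (submitters' processing notes), background-subtracted within each array and not normalized between arrays. A second file of the authors holds processed log2 values. Its making is not given in the sources used here, and it served as an alternative. Every array had 52044 spots. The scanner error of a sum was the root of the summed squared probe errors, and a ratio's error was propagated from both signals. A fold of 2 or more was counted without a test. Named members were those detected on all arrays, the 10 brightest, the 5 highest and 5 lowest at 24 h over sham, those detected on single arrays, and the strongest of each stem. The members and lists were chosen with earlier results of these data known. Alternatives were 1 feature size, spike-in scaling (4 controls), 75th percentile scaling, normexp (offset 50), the software's totals, the processed table, and other detection rules. The normexp step ran in limma 3.58.1 under R 4.3.3, and the rest in Python 3.11.15 with pandas 2.3.3 and numpy 2.4.6, with figures by matplotlib 3.10.9. The arithmetic of sums and ratios was checked on simulated data of 1247 miRNAs, where 172 of 172 changed and measured miRNAs were recovered within 4 errors. The simulated noise was drawn from the same scanner errors, and only miRNAs with every probe detected on both simulated arrays were counted. The simulation therefore does not cover ratios over partly detected probes or differences between arrays. Positions and mature sequences are from RefSeq (GRCm38.p6).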

Additional observations from a re-analysis of the deposited data

How the results depend on the processing

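Each group had 1 array, so there was no replicate to leave out, the slide as a block was not run for want of residual arrays, and no paired analysis was possible because the groups shared no replicates beyond that 1 array. The sum at 12 h over sham kept its direction under the settings tried but ranged from 1.94 to 4.19, and the sum at 12 over 24 h kept its direction too. The sum or the median at 24 and 48 h over sham changed sign under some. The cause was not tested. In the lists below the log2 ratios over sham are those of the summed family signal and then of the median member.

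With one feature size the sums had 3.02 at 12 h and 1.20 at 24 h, the medians 2.80 and 1.00, and 4 members were at least 2-fold higher at 24 h. With spike-in scaling the sums had 2.34, 0.48, and −0.21 at 12, 24, and 48 h, the medians 2.12, 0.28, and −0.40, and 1 member was at least 2-fold higher at 24 h. With 75th percentile scaling the sums had 0.92, 2.76, 0.41, and 0.97 at 6, 12, 24, and 48 h, the medians 0.96, 2.54, and 0.21 at 6, 12, and 24 h, and 3 members, 0 members, and 1 member were at least 2-fold higher at 6, 24, and 48 h. With normexp background correction the sums had 0.64, 1.94, 0.59, and 0.49 and the medians 0.55, 1.35, 0.40, and 0.31. With the processed table the sums had 0.74, 2.41, 0.26, and 1.02 and the medians 0.70, 2.42, −0.27, and 0.95. With the software's total gene signal the sums had 2.89, 1.70, and 0.59 at 12, 24, and 48 h and the medians 2.18 and 1.61 at 12 and 24 h. In that column 7 of the 13 detected members carried signal that was not of their own probes. Without a detection filter the sums had 1.61, 4.19, 1.79, and 1.08.

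The following were chosen after seeing the data. Without the brightest member the sums had 1.33, 1.31, and 0.70 at 6, 24, and 48 h. Over probes detected on both arrays the sum had 3.24 at 12 h. For 12 over 24 h the sum had 2.35 with 75th percentile scaling, 1.19 with the total gene signal, 1.35 with normexp, 2.16 with the processed table, 2.40 without a filter, 2.002 without the brightest member, and 1.69 over shared probes. The medians of the first 4 were 2.34, 0.90, 0.90, and 2.11.

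Single members reversed at 24 h over sham. With the processed table miR-466f-3p had −0.069, miR-466i-3p −1.70, miR-466q −0.67, miR-467f −0.043, miR-669n −3.09, and miR-669p-3p −0.47. With spike-in and 75th percentile scaling miR-466q had −0.018 and −0.090, miR-669n −0.12 and −0.19, and miR-669p-3p −0.029 and −0.10. With the total gene signal miR-466q had −0.10 at 12 h over sham, and for 12 over 24 h miR-466f-3p had −0.74, miR-466q −1.82, and miR-669n −1.31.

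The count of detected members was highest at 12 h under each detection rule. It was 17 there with a limit of 2 errors and 11 with 5 errors, and on the other arrays it was 9 to 11 and 6 to 8. The lowest signal detected on an array was 1.99 (sham), 2.41 (6 h), 3.64 (12 h), 4.35 (24 h), and 2.77 (48 h), which limits what can be said of the dimmest members.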
